A study of Drosophila melanogaster with 4 samples.

Results

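Normal male larvae of Drosophila melanogaster were compared with normal female larvae, as the baseline sex difference of a study of trisomy 2L. The mean over the transcript models of each gene was taken, and genes with a mean of at least 10 CPM (read counts scaled to a total of 1000000 per library) over the 4 groups of the study were kept, which left 6308 of 14161 genes. The choice used the mean level of all 4 groups and not the sex difference. A gene without female RNA could still pass only through a high level in males, and the results below say where this matters.

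Larvae at the third instar, grown at 25 degrees, were sequenced by RNA-seq from total RNA. The 4 groups are normal females, normal males, trisomic females and trisomic males. The design text calls the normal animals Cantons, and the trisomic larvae carry an extra copy of the left arm of chromosome 2. The labels name 4 biological replicates in each group, and the files give the mean CPM that the authors made of each group. Depth per sample is unknown, and no error, interval or test can be given for any difference below. A gene is called male-high or female-high where the groups were at least 2-fold apart on the scale of log2 (CPM + 1), a statement of size only. Differences are males less females on that scale, so a positive value is higher in males, and the pseudocount of 1 understates differences of low genes.

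Fly males carry a single X and a Y, and females a pair of X chromosomes. In females the splicing factor Sex-lethal directs female development and blocks translation of msl-2. In males the MSL complex, made of the MSL proteins and the roX RNAs, binds the X and raises its transcription, which is called dosage compensation. The larval testis already holds many spermatocytes, which express a large set of genes for meiosis and sperm formation, while the larval ovary is small and has not begun to make eggs. Yolk protein synthesis in the fat body starts only in the adult female.

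Most genes stood at nearly the same level in both sexes, and those that did not were mainly genes with high levels in males and little or no RNA in females. The median difference over the 6308 genes was 0.05, and 82.0% of them lay within 1.5-fold. Male-high were 588 genes (9.32% of those tested) and female-high 33 (0.523%). The imbalance grew with size: at 4-fold the counts were 421 and 1, and at 8-fold 390 and 0, while 70 genes were at least 64-fold higher in males. At 1.5-fold the counts came closer together, with 904 male-high genes (14.3%) and 232 female-high genes (3.68%).

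The male-high genes formed a set with almost no RNA in females and a smaller set present in both sexes. Their median level was 0.412 CPM in females and 40.8 CPM in males. Of the 588, 482 lay under 10 CPM in females and 341 under 1 CPM. Among the 5495 genes with at least 10 CPM in both normal groups, 106 (1.93%) were male-high and 29 (0.528%) female-high. With a minimum mean of 50 CPM, 42 male-high and 23 female-high genes were left, so the male share of the calls was 64.6% in place of 94.7%.

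In shares of the total, the male-high genes made up 0.853% of the CPM of normal females and 7.18% of those of normal males, counting 1 value per gene. The 33 female-high genes went from 3.93% in females to 1.91% in males. Their median levels were 87.4 CPM in females and 35.9 CPM in males, and 29 of them had at least 10 CPM in males. The genes next to the 2-fold line were CG31635 (1.001) and CG5794 (1.005) inside and msb1l (0.99) and CG2225 (0.99) outside on the male side. On the female side Jon99Fii (-1.002) and Rfabg (-1.002) lay inside and spheroide (-0.996) and Jon99Fi (-0.98) outside.

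**Figure D1:**
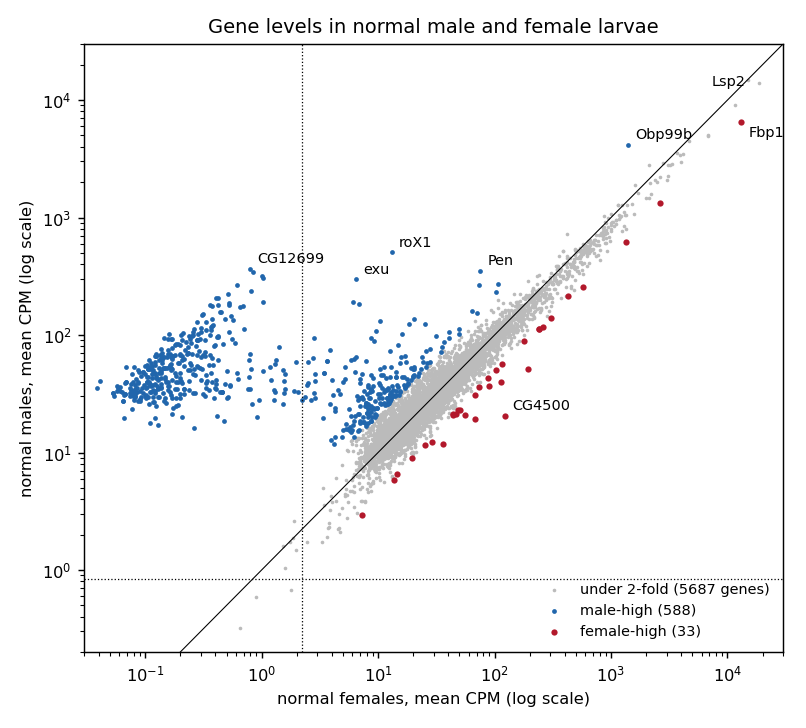
Mean CPM of each of the 6308 genes in normal females (horizontal, log scale) and normal males (vertical, log scale), with male-high genes in blue, female-high genes in red, the line of equal levels, and dotted lines at the value that many models share in each group (2.22 CPM in females and 0.845 CPM in males). The 588 male-high genes form a cloud at the left, under 1 CPM in females, and a second group near the line, while the 33 female-high genes lie close to the line along its whole length.

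Low values in these tables need care. In normal females 645 transcript models carry exactly 2.22 CPM, and 27.0% of models lie below that value. In normal males 373 models carry 0.845 CPM. The Y-linked genes Ory, kl-5 and Ppr-Y, which XX animals lack, are all listed at 2.22 CPM in normal females, so levels of that size in females cannot be read as expression. Of the male-high genes 363 lie at or below it in females and are described below as barely detected there. Raising every lower value of both groups to 2.22 CPM left 588 male-high and 33 female-high genes, but lowered the sizes: at least 16-fold higher in males were then 167 genes in place of 354, and at least 64-fold 9 in place of 70. Differences against female levels under 2.22 CPM are therefore uncertain in size and in rank.

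Genes of the testis and of spermatocytes stood far higher in males. The marker genes of the testis summed to 5.71 CPM in females and 677 CPM in males, and 9 of the 10 reached 10 CPM in males and 0 in females. Among them don juan (dj), which encodes a protein of the sperm tail, stood at 0.261 CPM in females and 113 CPM in males. The male germline fusion gene fuzzy onions (fzo), needed to fuse mitochondria in spermatids, stood at 0.313 and 67.7 CPM. The meiotic arrest genes aly and can, which switch on the spermatocyte program, stood at 0.0337 against 6.57 CPM and 0.204 against 14.2 CPM.

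Early regulators and late products of spermatogenesis were thus both higher in males. In whole larvae, fewer cells of a type and less RNA per cell cannot be told apart. Markers of the ovary and germline (vas, nos, aub, osk, otu and bam) were low in both sexes, at a sum of 1.62 CPM in females and 11.3 CPM in males. Markers of the adult male accessory gland were at or near the floor in both, with a sum of 2.31 and 1.66 CPM.

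The testis and spermatocyte list held 66 genes, of which 62 were found and 43 passed the filter. Of the 43, 41 were male-high, beside 9.32% of all genes tested, and 0 female-high. Under 10 CPM in females lay 41 of the 43, so that they passed through males. Over all 62, with no filter, 61 stood above 0 and the median was 4.73, against a median of 0.06 over all 14161 genes, of which 58.8% stood above 0. Raised to 2.22 CPM where lower, the values of the 62 gave a median of 3.38. The levels of the 62 summed to 215 CPM in females and 3818 CPM in males. Of the 588 male-high genes, 68.4% carried only a CG or CR number as their name, against 48.8% of all genes tested.

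The largest difference of all was that of CG12699, at 0.801 CPM in females and 367 CPM in males (7.68). SIP2, placed on 2R by the files, stood at 0.851 and 345 CPM (7.55). The 3 sperm leucyl aminopeptidase genes that followed encode abundant proteins of mature sperm. S-Lap3 (CG32063 in the files) stood at 0.609 CPM in females and 268 CPM in males (7.39). S-Lap4 (CG32064) and S-Lap1 (CG6372) differed by 7.33 and 7.24. These family members resemble each other and may share reads.

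Mst77F, a protein that packs the chromatin of sperm, stood at 0.805 CPM in females and 236 CPM in males (7.04). The spermatid gene w-cup (world cup) stood at 0.362 and 179 CPM (7.05). The rest of the 15 largest differences were those of CG8701 (7.21), CG5089 (7.20), CG15109 (7.19), CG31948 (7.004), CG33340 (6.99), CG12861 (6.95), CG12860 (6.89) and CG9920 (6.85). All 15 lay at 1.02 CPM or less in females and at 150 CPM or more in males, and none of them lies on the X.

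Several gene families showed a male form that stood far apart from its general relatives. The testis tubulin gene betaTub85D, which builds the sperm axoneme, stood at 0.689 CPM in females and 176 CPM in males (6.71), while the median of the 12 actin and tubulin genes that passed was 0.05. The gene lay under 10 CPM in both female groups, so it passed through its male levels. Its relatives alphaTub84D (18.6 and 25.9 CPM, 0.45) and betaTub97EF (12.7 and 7.90 CPM, -0.62) stayed under 2-fold. The testis forms of proteasome subunits showed the same split.

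Rpt6R, a testis form of an ATPase subunit of the proteasome, stood at 1.89 CPM in females and 33.3 CPM in males (3.56). All 15 testis forms found were above 0, with a median of 3.28 and no filter, beside 58.8% of all genes. Their levels in normal females ran from 0.0252 to 1.89 CPM, all under the shared 2.22 CPM, so the sizes are uncertain. Rpt6R alone passed the filter, and it passed through its male levels. Of the general proteasome list, 30 of 31 genes passed, 0 were 2-fold different and the median was 0.03. The largest differences there were those of Pros28.1 (142 and 109 CPM, -0.37), Prosbeta3 (141 and 180 CPM, 0.35) and Rpn9 (161 and 192 CPM, 0.26).

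Among chaperones, 4 of the 19 genes that passed were male-high, beside 9.32% of all genes tested, and the 3 described here passed through their male level. Hsp60C, a form of the mitochondrial chaperonin, stood at 0.3075 CPM in females and 51.1 CPM in males (5.32). Hsp60B, a form required for making sperm, stood at 0.150 and 26.5 CPM (4.58), and Hsc70-2 at 0.916 and 20.05 CPM (3.46). The other members were closer together, and the list median was 0.25. Axonemal dynein genes, which drive the beat of the sperm tail, all stood above 0 with no filter (13 of 13, beside 58.8% of all genes). Their median of 2.44 is the value of kl-2, a Y gene described below, and female levels in this list reach the shared 2.22 CPM. The only member to pass, through its male levels, was CG5155 (gudu, 0.142 and 32.1 CPM, 4.86), which is listed with them but is not itself a dynein.

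The 3 germline genes with the largest differences are known mainly from oogenesis. The gene exuperantia (exu), which localises RNAs in the oocyte and also acts in spermatogenesis, stood at 6.42 CPM in females and 298 CPM in males (5.33). The translational regulator orb stood at 0.352 and 34.0 CPM (4.69), and cup, a translational repressor of the germline, at 9.29 and 89.5 CPM (3.14). These 3 were the male-high members among the 9 of 40 germline and piRNA genes that passed, beside 9.32% of all genes tested. All 3 lay under 10 CPM in both female groups, so they passed through their male levels. With no filter 36 of the 40 stood above 0, with a median of 0.56, beside 58.8% of all genes. All 13 meiotic arrest regulators stood above 0 as well (median 2.19 with no filter), but the single member that passed, mip40, differed by 0.60 (14.1 and 21.9 CPM).

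Cell cycle genes stood mostly higher in males. Of the 31 genes of cyclins and mitosis that passed, 25 stood above 0, beside 56.2% of all genes tested. Male-high were 7 of the 31, beside 9.32% of all genes tested, and 0 were female-high, with a median of 0.37. The genes twe, aur and sub, described next, lay under 10 CPM in both female groups, so they passed through their male levels. Twine (twe), the phosphatase that starts meiosis in spermatocytes, stood at 2.45 CPM in females and 37.2 CPM in males (3.47). Aurora A (aur) stood at 5.57 and 23.5 CPM (1.90), and the spindle kinesin gene subito (sub) at 7.92 and 26.5 CPM (1.63). In contrast, 18 genes of DNA replication had a median of -0.02. Only lat, a subunit of the origin recognition complex, stood apart there, at 3.66 and 59.8 CPM (3.71). It too lay under 10 CPM in both female groups and passed through its male levels. Next to it, Gnf1 (0.40) and RpA-70 (0.22) differed little.

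Of the 5 most abundant male-high genes, all but CG12699 were well above the shared low value in females. Obp99b, an odorant-binding protein gene, had the highest level of them, at 1390 CPM in females and 4170 CPM in males (1.58). The importin gene Pendulin (Pen), a nuclear import factor, stood at 75.7 and 353 CPM (2.21). CG42574 (ctrip), a ubiquitin ligase gene, stood at 108 and 274 CPM (1.34). The remaining members of this group were roX1, described with the MSL genes, and CG12699.

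Female-high genes were few and differed by less. CG4500 (hll), an acyl-CoA synthetase gene, was the only gene at least 4-fold higher in females, at 122 CPM in females and 20.6 CPM in males (-2.51). Nplp2, a neuropeptide-like precursor, stood at 193 and 51.5 CPM (-1.89). Next came lcs, an X gene, at 67.9 and 19.2 CPM (-1.77).

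These were followed by CG7763 (36.1 and 11.7 CPM, -1.55) and CG14425 (113 and 39.6 CPM, -1.49). The current annotation no longer lists CG14425 as a gene of its own and gives that name as an older one of Sxl. Its values are close to those of the female-high Sxl models below. The lysosomal alpha-mannosidase genes CG9466 (LManV) and CG9468 (LManVI), which are neighbours, stood at 55.7 against 20.9 CPM (-1.37) and 89.5 against 37.1 CPM (-1.25).

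The next of the 15 largest differences include digestive and metabolic genes. Jon25Bii, a serine protease of the larval midgut, stood at 262 CPM in females and 118 CPM in males (-1.15). Cyp28a5, a cytochrome P450 gene, stood at 307 and 141 CPM (-1.12), and the serine-pyruvate aminotransferase gene Spat at 50.5 and 22.8 CPM (-1.11). Alcohol dehydrogenase (Adh) stood at 242 and 112 CPM (-1.10). Its neighbour Adhr carried nearly the same values (241 and 112 CPM), and these overlapping genes may share reads.

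The most abundant female-high gene was Fbp1, the fat body receptor for storage proteins, at 13064 CPM in females and 6454 CPM in males (-1.02). Rfabg, the lipid carrier of the haemolymph, stood at 2655 and 1325 CPM (-1.002), and Ag5r2 at 1343 and 624 CPM (-1.10). CG12116 stood at 575 and 254 CPM (-1.17), and the midgut protease gene Jon99Fii at 431 and 215 CPM (-1.002). The last of the 15 largest were CG32633 (-1.18) and CG17636 (-1.10), both on the X.

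Of the genes that build the dosage compensation machinery, the roX RNA genes differed most. The X gene roX1 stood at 13.1 CPM in females and 506 CPM in males (5.16), the highest level of any male-high gene but Obp99b. The second RNA, roX2, stood at 0.103 and 10.96 CPM (3.44) and did not pass the filter. The gene msl-2, whose protein is the male-limiting subunit, stood at 5.59 and 15.5 CPM (1.33). These 3 genes are the main male-specific elements of the complex.

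The subunits that both sexes make differed less. The acetyltransferase gene mof stood at 4.42 CPM in females and 8.26 CPM in males (0.77), under the filter. The histone kinase gene JIL-1 stood at 27.0 and 42.4 CPM (0.63), and msl-3 at 6.26 and 9.26 CPM (0.50). Still nearer to 0 were CG1832 (Clamp, 0.31), which brings the complex to the X, the helicase gene mle (0.21), Top2 (0.16) and msl-1 (0.10). All 10 members found stood above 0, beside 58.8% of all genes with no filter. Of the 7 that passed, 2 were male-high, beside 9.32% of all genes tested. The median of the 7 was 0.31.

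The sex determination genes that passed the filter stayed under 2-fold in their gene means, while single transcript models of Sxl passed it. Sxl stood at 48.9 CPM in females and 30.6 CPM in males (-0.66) as a mean over 21 transcript models. Of these, 5 models were female-high, with 102 to 114 CPM in females and 34.4 to 40.4 CPM in males, and the other 16 lay between -0.38 and 0.27. Models of a gene overlap, and reads may count for several of them.

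The splicing partner gene tra2 stood at 15.2 CPM in females and 27.3 CPM in males (0.80). Doublesex (dsx), the last switch of the pathway, stood at 5.69 and 3.65 CPM (-0.52), with 2 models higher in females (-1.05 and -1.08) and 1 higher in males (0.32). The splicing regulator gene tra stood at 8.11 and 6.11 CPM (-0.36). Both dsx and tra lay under the filter.

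The other members were closer together. They were da (0.36), gro (0.20), vir (0.15), dpn (0.11), her (0.06), fru (0.06), ix (0.02), emc (-0.03), snf (-0.07) and fl(2)d (-0.11). The early X counting genes sc (5.34 and 5.26 CPM), run (1.03 and 1.03 CPM), os (0.402 and 0.814 CPM) and sisA (1.26 and 0.0554 CPM, -1.10) were low in both sexes, and the sisA values lie below the shared values. Of the 18 genes found, 9 passed and 0 were 2-fold different.

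Yolk protein genes, a female product of the adult, were low in these larvae. Yp3 had the highest level, at 6.99 CPM in females and 0.277 CPM in males (-2.64). Yp2 stood at 2.06 and 0.0808 CPM and Yp1 at 0.124 and 0.0490 CPM. None of these passed the filter, and the values of Yp1 and Yp2 in females lie below the shared value.

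The fertility genes of the Y, which encode dyneins and other sperm proteins, were low as well. Values in males were 4.56 CPM for kl-2, 2.83 for kl-3, 2.44 for kl-5, 1.18 for Ppr-Y and 0.980 for Ory. In females kl-2 was listed at 0.0252 CPM and kl-3 at 1.253 CPM, and the others at the shared value. ARY, which the files place in heterochromatin, stood at 0.645 CPM in females and 5.91 CPM in males.

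Genes of the X stood close to equal in both sexes, and slightly lower in males than autosomal genes did. Over 875 X genes the median was -0.05, and over the 5339 genes of 2L, 2R, 3L and 3R it was 0.07. The X was therefore lower by 0.11 relative to these arms, a ratio of 0.926. Below 0 lay 513 X genes (58.6%), against 41.4% of the genes of these 4 arms. With genes of at least 10 CPM in both groups the same difference of medians was -0.09, over 772 X genes and 4627 others.

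The autosomal arms were alike in their medians, at 0.07 for 2L, 0.04 for 2R, 0.07 for 3L and 0.07 for 3R. Chromosome 4, the small autosome that is mostly heterochromatic, had a median of 0.09 over 59 genes. Rfabg, described above, was its single gene at least 2-fold different. Next in size, lgs stood at 59.2 CPM in females and 88.0 CPM in males (0.56) and pho at 52.0 and 69.8 CPM (0.42). On the female side ATPsyn-beta followed Rfabg (451 and 378 CPM, -0.25). The X gave 11.8% of the CPM of females and 11.4% of those of males, counting 1 value per gene.

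Male-high genes were less frequent on the X. Of the X genes 43 (4.91%) were male-high, against 10.2% of the genes on 2L, 2R, 3L and 3R. The single arms ranged from 8.10% on 2R and 9.84% on 3R to 10.8% on 3L and 12.2% on 2L, and chromosome 4 held 0. Female-high were 12 X genes (1.37%), against 0.375% of the genes of the 4 arms together, with 11 of those 20 genes on 2L (0.866%). The order of the X and 2L for female-high genes turned under some settings, to 0.457% and 0.630% with a pseudocount of 5, to 3.38% and 3.69% with no filter, and to 0 and 0.0787% at 4-fold. In the set with at least 10 CPM in both groups, male-high genes made up 0.907% on the X and 2.14% on the 4 arms, and female-high genes 1.30% and 0.389%.

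The 5 largest male-high differences on the X led with CG8565 (0.367 CPM in females and 116 CPM in males, 6.42), hydra (0.203 and 100.1 CPM, 6.39) and CR32690 (0.169 and 92.3 CPM, 6.32), a noncoding gene by its name. CG32652 (0.255 and 97.5 CPM, 6.30) and TrxT, a testis form of thioredoxin (0.244 and 92.2 CPM, 6.23), came next. All 5 genes were barely detected in females, so their order against roX1 (5.16) is not firm. With values raised to 2.22 CPM where lower, CG8565 differed by 5.19, hydra by 4.97, CG32652 by 4.94, and CR32690 and TrxT by 4.86 each.

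**Figure D2:**
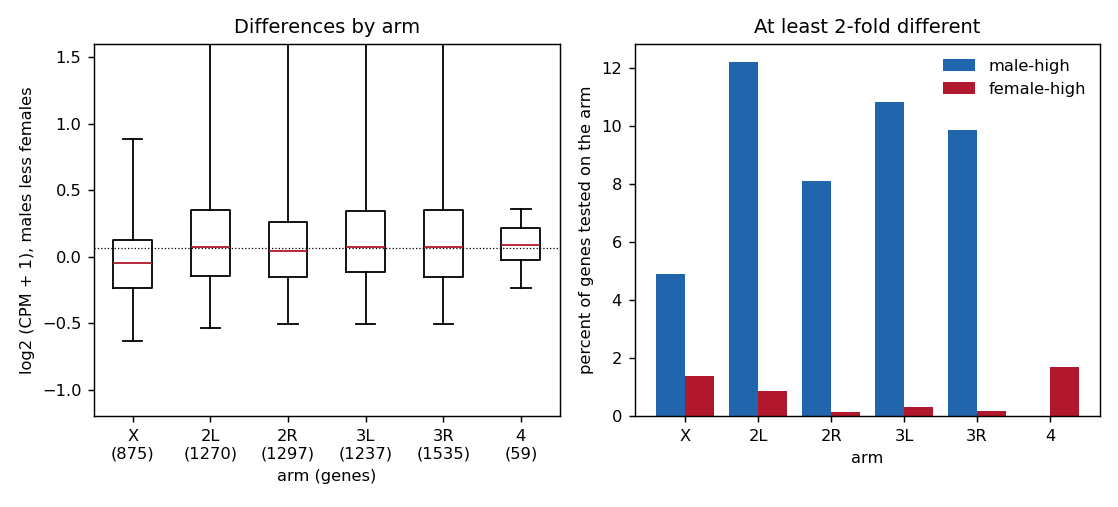
Left, the difference of log2 (CPM + 1), males less females, for the genes of each arm, with boxes from the first to the third quartile, medians in red, whiskers at the 5th and 95th percentiles (cut by the axis at the top) and a dotted line at the median of 2L, 2R, 3L and 3R. Right, the percent of genes on each arm that were at least 2-fold different, where the X is lowest among the large arms for male-high genes (4.91%) and above each of them for female-high genes (1.37%).

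The X to autosome difference depended on the level of the genes. In log2 CPM ratios without a pseudocount, over classes of the mean of the normal groups alone, X genes were lower than autosomal ones by 0.24 at 5 to 10 CPM, a class of 372 X genes. The gap was 0.16 at 10 to 20 CPM, 0.14 at 20 to 50 CPM, 0.12 at 50 to 100 CPM and 0.05 in the 91 X genes of 100 CPM or more. The share of genes at least 2-fold higher in males differed in parallel, as in the lowest class it was 28.4% on autosomes and 16.9% on the X. Leaving out the genes that were 2-fold different on the log2 (CPM + 1) scale gave gaps of 0.14, 0.11, 0.12, 0.09 and 0.04.

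Along the X, 23 of 25 windows of consecutive genes had a median below that of the autosomes, with a range from -0.22 to 0.07. On the autosomal arms 12 windows of 2L, 16 of 2R, 12 of 3L and 15 of 3R lay below, out of 25 each. The widest range among these was from -0.19 to 0.13 on 3L, so single windows of autosomes departed from 0 by nearly as much as those of the X.

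**Figure D3:**
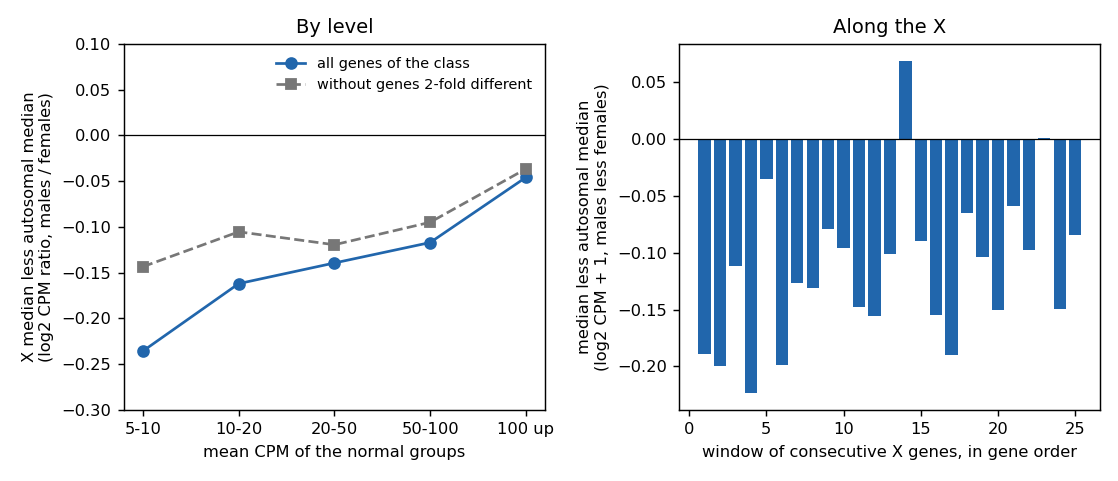
Left, the X median less the autosomal median of the log2 CPM ratio (males over females) by class of mean CPM, for all genes and without genes 2-fold different; the gap narrows from -0.24 to -0.05 with all genes. Right, the median of 25 windows of consecutive X genes less the autosomal median of log2 (CPM + 1), males less females, with 23 of the 25 bars below 0.

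Outside the germline, several groups of somatic genes stood lower in males, mostly by less than 2-fold. Over all genes tested 43.8% lay below 0 and 56.2% above, and list counts below are to be read beside these shares. CPM are shares of a total, so for any list a lower share and a lower amount of RNA cannot be told apart. In males the male-high genes hold 7.18% of the summed gene values. The 5687 genes that were neither male-high nor female-high had a median of 0.01. The part of a common shift in the list medians was not tested. Summed marker levels were 60095 CPM in females and 47101 CPM in males for the fat body, 15730 and 14657 for the salivary gland, 3585 and 2515 for the midgut, 3527 and 2633 for muscle, 10911 and 9455 for cuticle and 202 and 162 for haemocytes. The 3 neuronal markers found summed to 59.8 and 55.3. Each of these sums was higher in females, and their part in the list results below was not tested.

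Digestive enzymes of the midgut stood lowest. Of 37 genes that passed, 35 were below 0 with a median of -0.52. Female-high were 4 and male-high 0, beside 0.523% and 9.32% of all genes tested. Beside Jon25Bii, the proteases Jon99Cii (14.5 CPM in females and 6.53 CPM in males, -1.04) and Jon99Ci (73.0 and 35.9 CPM, -1.005) led the list. Genes of the Jon family resemble each other, and reads may be divided among them. Glycolysis came next, with 12 of 13 genes below 0 and a median of -0.49. Its largest differences were those of the phosphoglycerate mutase gene Pglym78 (70.9 and 39.6 CPM, -0.82), the lactate dehydrogenase gene ImpL3 (61.5 and 35.2 CPM, -0.79) and Gpdh (58.4 and 34.0 CPM, -0.76), which supplies glycerol phosphate.

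Fat body and larval serum genes had a median of -0.35, with 15 of 16 below 0 and 2 female-high, beside 0.523% of all genes tested. The storage protein genes among them did not move as one, which was seen after their values were known. Lsp2 stood at 18488 CPM in females and 14064 CPM in males (-0.39), while Lsp1beta stood at 14926 and 14782 CPM (-0.01). The X gene Lsp1alpha stood at 2111 and 2815 CPM (0.42) and was the only member above 0. Fat body protein 2 (Fbp2) stood at 2998 and 2067 CPM (-0.54).

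Cuticle genes (25 of 28 below 0, median -0.26) included Cpr11B (19.5 and 10.1 CPM, -0.88), Cpr47Eg (7.75 and 3.81 CPM, -0.86) and Cpr47Eb (29.9 and 18.03 CPM, -0.70). Cytosolic ribosomal protein genes had a median of -0.22, with 81 of 82 below 0 and none 2-fold different. The lowest were sta (626 and 390 CPM, -0.68) and RpL13 (407 and 257 CPM, -0.66). Cytochrome P450 genes had a median of -0.26 with 32 of 37 below 0. Cyp6a23 (456 and 249 CPM, -0.87) followed Cyp28a5, and Cyp312a1 stood against the list, at 4.01 and 41.5 CPM (3.08). Cyp312a1 lay under 10 CPM in both female groups, so it passed through its male levels.

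Haemocyte genes had a median of -0.18 with 20 of 22 below 0. The prophenoloxidase genes, which serve melanisation, were lowest, with proPO-A1 at 115.3 CPM in females and 56.2 CPM in males (-1.02) and CG8193 (PPO2) at 72.1 and 36.9 CPM (-0.95). The basement membrane gene BM-40-SPARC stood at 53.0 and 34.4 CPM (-0.61). Muscle genes (20 of 26 below 0, median -0.18) were led by tropomyosin Tm2 (219 and 142 CPM, -0.62) and myosin light chain Mlc2 (1567 and 1066 CPM, -0.56), with the titin-like gene sls on the other side (45.05 and 63.9 CPM, 0.49). Subunits of respiratory complexes had a median of -0.14 over 12 genes, 5 of them above 0, and CoVa (-0.29), Cyt-c-p (-0.28) and SdhB (-0.23) differed most.

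Salivary glue genes had a median of -0.07 over 11 genes, with 5 above 0. The glue gene ng3 stood at 178 CPM in females and 88.3 CPM in males (-1.003), ng2 at 13.4 and 18.7 CPM (0.46) and Sgs1 at 931 and 736 CPM (-0.34). Ecdysone response genes, which mark the progress towards the pupa, had a median of 0.09 over 17 genes with 11 above 0. They ranged from ImpL3 and Eip71CD (77.6 and 56.8 CPM, -0.44) to Hr39 (27.2 and 35.9 CPM, 0.39).

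The remaining lists lay near 0 or were mixed, and medians up to 0.06 turned to or below 0 when differences were centred on the autosomal median. Medians were 0.08 for 9 neuronal genes (ple 0.44, unc-13 0.28, Syt1 -0.22), 0.06 for 7 Hox and disc selector genes (dac 0.33, ptc 0.27, ap 0.10) and 0.06 for 25 mitochondrial ribosomal genes (mRpL51 0.53, mRpL15 0.52, mRpS17 0.51). The 6 antimicrobial genes had a median of 0.06, and the 28 found with no filter one of -0.03. The antifungal peptide gene Drs stood at 12.9 and 28.7 CPM (1.098), dro5 at 0.46 and dro2 at -0.42.

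The glutathione S-transferase and odorant-binding protein lists changed side with the filter. Their medians were 0.20 over 7 genes and 0.13 over 8 genes with it, and -0.01 and -0.03 with none. Single members still differed, as GstS1 stood at 70.5 CPM in females and 153 CPM in males (1.11). GstE3 (0.52) and GstD9 (0.46) followed it, and beside Obp99b the largest differences in its list were those of Obp56a (-0.46) and Obp83ef (0.43).

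**Figure D4:**
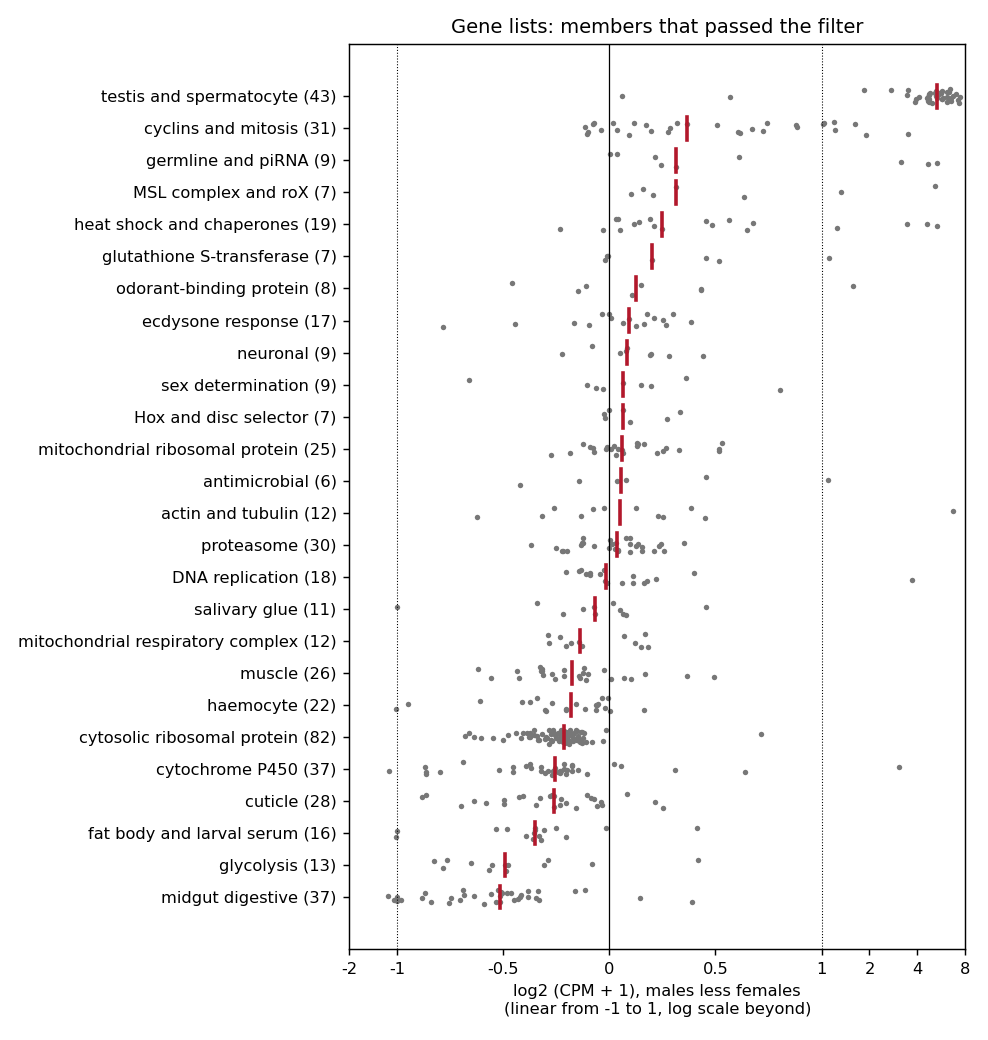
Difference of log2 (CPM + 1), males less females, of each gene that passed the filter (grey points) in the lists with at least 5 such genes, with the list median in red and the number of genes in brackets; the axis is linear from -1 to 1 and logarithmic beyond, and dotted lines mark 2-fold. The testis list lies far to the right with a median of 5.33, while midgut, glycolysis, fat body, cuticle, P450 and ribosomal lists lie to the left by less than 2-fold.

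The male-high and female-high genes differed in structure from the genes tested as a whole. Genes of a single exon made up 18.5% of male-high and 33.3% of female-high genes, against 8.42% of all genes tested. Median gene spans were 2183 and 1570 bases, against 3063.5. In the files 68.2% of male-high and 87.9% of female-high genes had a single transcript model, against 58.8% of all, although the mean over models that set the filter and the fold depends on their number. Gene spans were read from the current RefSeq annotation, in which 98.1% of the genes tested were found, and exon counts from the Ensembl annotation.

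Male-high genes often lay side by side. In the order of the genes tested, 219 of 577 placed male-high genes (38.0%) had a male-high gene as a direct neighbour, against 15.3% of the other genes. There were 93 runs of at least 2 consecutive male-high genes, 25 of at least 3 and 3 of 5. One run of 5 on 3R holds Mst84Dd, Mst84Dc, Mst84Db, Mst84Da and MstProx, of which the Mst84D genes encode related sperm tail proteins, with differences from 4.78 to 5.68. A second on 2L reaches from CG12448 to CG31819 (4.97 to 6.40) and another on 2R from CG34315 to CG34312 (1.37 to 4.55). Overlapping or similar neighbours may share reads.

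Transcript models of a gene were mostly alike in their difference. Of 2543 genes with more than 1 model of at least 10 CPM, 12 had models over 2-fold apart and 0 had models 2-fold different in both directions. The widest gaps after CG15892 (1.40 to 4.64) were in the centrosome gene cnn, with 1.501 to 4.05 over 6 models, and in bol, a regulator of meiotic entry in males, with 3.34 to 5.54 over 5 models. Sxl followed with -1.54 to 0.27. The actin nucleator gene spir ranged from 0.12 to 1.71.

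The sex difference was also read in trisomic larvae, which share no samples with the normal ones. Trisomic males also entered the filter, so genes low in females passed partly through their level in trisomic males. In trisomic larvae 487 genes (7.72%) were male-high and 26 (0.412%) female-high. Of the 588 male-high genes of normal larvae all had the same sign in trisomic larvae and 480 were male-high again, which is 81.6% of the normal and 98.6% of the trisomic set. Of the 33 female-high genes 18 (54.5%) had the same sign, against 63.9% of all genes tested, and 4 were female-high again, 12.1% of the normal and 15.4% of the trisomic set. With the filter on the normal groups alone, an alternative added after the data were seen, 807 of 6497 genes (12.4%) were male-high in normal larvae, all 807 had the same sign in trisomic larvae, and 685 (84.9%) were male-high there. In that set 10.7% of all genes were male-high in trisomic larvae. Over all 6308 genes, which are not independent, Pearson's r between the differences of both karyotypes was 0.95 and Spearman's rho 0.49.

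The male-high genes stood less far apart in trisomic larvae. Their median difference was 4.75 in normal and 3.40 in trisomic larvae, and 568 of them (96.6%) had the smaller value in trisomic larvae, against 65.6% of all genes tested. They were picked for their size in normal larvae, and 93.9% of the female-high genes were smaller in trisomic larvae as well. In males they summed to 37668 CPM in normal and 18907 CPM in trisomic larvae. For CG12699 the trisomic levels were 1.253 CPM in females and 120 CPM in males (5.74), for exu 5.35 and 91.3 CPM (3.86) and for roX1 22.4 and 285 CPM (3.61). The chaperonin gene Hsp60C went the other way, at 0.499 and 79.9 CPM (5.75), as did Hsp60B (5.18) and Hsc70-2 (3.79). On this scale these 3 genes had the larger value in trisomic larvae. Their female levels lay under the shared low value of each karyotype, so a larger difference there is not established. Hsp60B and Hsp60C lie on 2L, the arm in extra copy, and a part of this in their values was not tested. The gene msl-2 had a similar difference in both karyotypes (1.33 and 1.34).

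The 4 genes that were female-high in both karyotypes were CG4500, CG7763, CG14425 and Fbp1. In trisomic larvae CG4500 stood at 76.2 CPM in females and 14.2 CPM in males (-2.35), CG7763 at 21.0 and 4.92 CPM (-1.89) and CG14425 at 70.6 and 25.7 CPM (-1.43). Fbp1 stood at 15894 and 4839 CPM (-1.72). These kept their difference, but others did not: Nplp2 differed by -0.47, lcs by -0.18, Adh by 0.00 and Jon25Bii by 0.36.

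List medians of the somatic groups were not the same in trisomic larvae. That of midgut genes was 0.06, of glycolysis 0.21, of muscle 0.20, of cuticle 0.08 and of P450 genes 0.08, all of them below 0 in normal larvae. Fat body (-0.25), haemocyte (-0.29) and ribosomal (-0.07) genes were below 0 in both, and salivary glue genes stood lower (-0.38). The median of 17 ecdysone response genes went from 0.09 in normal larvae (11 above 0) to -0.31 in trisomic larvae (3 above 0). That of 30 general proteasome genes went from 0.03 (19 above 0) to -0.15 (2 above 0). The X, in contrast, was lower than the autosomes by a similar size, 0.12 in trisomic against 0.11 in normal larvae. In all, 12 genes were at least 1.5-fold different in opposite directions, among them CG14205 (-0.72 in normal and 0.93 in trisomic larvae) and CG2444 (0.79 and -0.74), named after their values were seen.

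**Figure D5:**
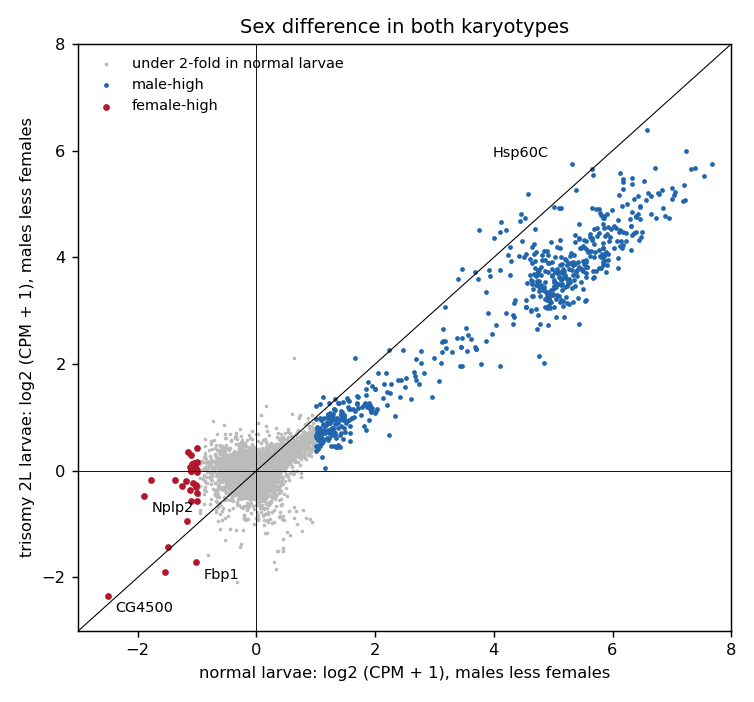
Difference of log2 (CPM + 1), males less females, in normal larvae (horizontal) and in trisomy 2L larvae (vertical) for the 6308 genes, with the line of equal differences. Male-high genes of normal larvae (blue) lie above 0 in both and mostly below the line, while the 33 female-high genes (red) scatter around 0 in trisomic larvae apart from 4, which include CG4500 and Fbp1.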

How the data were processed

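RNA of larvae at the third instar was sequenced from TruSeq libraries, per the labels' protocols. TopHat, HTSeq and the build dm3 are named, without versions, per the submitters' processing notes. Roles, annotation and strandedness are not stated in any source read for this report. Per the file headers, the deposited values are CPM that the authors averaged within each group. Each of the 4 columns sums to 1000000 over 22738 transcript models of an autosomal and an X table. Averages hold no whole reads, so no count test was run, and depth and replicate error are unknown.

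The mean over models gave each gene its value, and 3962 genes had more than 1 model. Differences were log2 (CPM + 1) of males less females among genes whose mean over the 4 columns reached 10 CPM. The genes closest to that minimum were CG13516 (10.003 CPM) inside and CG1134 (9.99 CPM) outside. Sizes replaced tests: a call means at least 2-fold, and lists were described by counts and medians beside all genes. Members and the 32 lists were chosen with earlier results of these data known.

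Named were the 15 largest differences in each direction, the 5 most abundant called genes of each, the 5 largest on the X and 2 on chromosome 4, all members of the MSL, sex determination, yolk and Y lists, and 3 members of each other list plus any 2-fold against it. Of these, 1 list member is not reported here. Chosen after their values were seen were Adhr, Lsp1alpha, Lsp1beta and Lsp2 among list members, and the genes of runs, transcript models, opposite karyotypes and the edges of thresholds. Markers of cell types were taken from a separate list.

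Exon counts came from the Ensembl annotation. Names, gene order and gene spans came from RefSeq Release 6, matched for 13899 genes. That build differs from dm3, so no coordinates are given. Alternatives in pseudocount, filter, models, threshold and centring were recomputed, and the steps were tested on simulated data. Replicates could not be left out, and promoter motifs were not analysed here. Software was matplotlib 3.10.9, scipy 1.17.1, pandas 2.3.3 and numpy 2.4.6 under Python 3.11.15.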

Additional observations from a re-analysis of the deposited data

Results flagged for a closer look

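The Y-linked genes kl-2 and kl-3 had sex differences of opposite sign in the 2 karyotypes. In normal larvae kl-2 differed by 2.44 and kl-3 by 0.77 on the log2 (CPM + 1) scale, males less females. In trisomic larvae the values were -0.92 and -1.17, with females of both genes listed at 2.81 CPM, the value that 608 models share in that column. Trisomic males stood at 1.01 CPM for kl-2 and 0.687 CPM for kl-3. XX animals lack these genes and a level at the shared value cannot be read as expression. The sign in trisomic larvae is therefore not a measured sex difference. The difference between the karyotypes was not tested.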

How the results depend on the processing

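No paired analysis was possible because the columns are group means and carry no replicate numbers, and for the same reason no replicate was left out. Against 588 male-high and 33 female-high genes, no filter gave 2026 and 437, a minimum mean of 50 CPM gave 42 male-high genes, the 1.5-fold threshold gave 904 and 232, and female-high counts were 15 with a pseudocount of 5 and 1 at 4-fold. With no filter the trisomic counts were 1577 and 1052, in place of 487 and 26. Male-high shares with no filter were 11.9% on the X and 14.4% on 2R. At 50 CPM they were 1.03% on the X, 2.41% on 2L, 3.75% on 2R, 3.39% on 3L and 2.85% on 3R. With a mean of 10 CPM in the normal groups alone the X share was 7.53%, and at 1.5-fold the shares of 2R, 3L and 3R were 13.6%, 16.9% and 15.3%. The cause of these shifts was not tested beyond the settings' own construction, which tests other genes or counts other sizes. The X stayed lower than the autosomes in all 8 alternatives run, from -0.12 to -0.08. Of 26 list medians, those of glutathione S-transferases (-0.014), odorant-binding proteins (-0.027) and antimicrobial genes (-0.033) turned from above to below 0 with no filter. Centring on the autosomal median shifted all differences by 0.07, so lists with medians within that of 0 have no firm side. Added after the data were seen, the floor at 2.22 CPM gave 588 and 33 and a testis list median of 4.09 in place of 5.33, and the filter on normal groups gave trisomic counts of 692 and 28. Depth is unknown, so the size of a difference that these libraries could show is unknown too.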
